A study of Mus musculus with 13 samples.

Results

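DNA replication licensing and fork genes were followed in mouse pre-B cells after gene transfer of the lymphoid transcription factor Ikaros. The set holds 46 genes chosen by symbol: the MCM helicase, origin recognition and loading factors, helicase activators, S phase kinases and cyclins, polymerases and primase, the sliding clamp and its loader, lagging-strand and single-strand binding proteins, and chromatin assembly factors at the fork. All 46 were measured among 19938 named genes on Gene 1.0 ST arrays, and 45 among 18194 named genes on the arrays of the 48 h design, where Chaf1a was not matched to a probe set with 1 gene symbol. Each gene was read from its brightest probe set on that array type, and all of these members passed the filter on low genes.

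The cells were B3, a single mouse pre-B cell line, transduced with mouse stem cell virus vectors that also encoded GFP. In the 48 h design, 2 arrays of cells carrying HA-tagged wild-type Ikaros (HA-Ikaros-IRES-GFP) were set against 2 arrays of cells carrying the HA-tagged mutant 159A (HA-159A Ikaros-IRES-GFP), which is deficient in DNA binding and served as the control. In the inducible design, cells carried HA-tagged Ikaros joined to the hormone-binding domain of the estrogen receptor (HA-Ikaros-ERt2-IRES-GFP) and were exposed to 4-hydroxytamoxifen, the ligand of that domain, for 2 h (3 arrays) or 6 h (3 arrays); cells with ERt2-IRES-GFP alone were exposed for 6 h (3 arrays). Biological replicates are named in the labels, but not whether each was its own culture; the spread behind every p-value may therefore be technical. No vector sample at 2 h and no unexposed Ikaros-ERt2 sample was among the arrays, so a standing difference between the inducible lines and a response to the ligand cannot be told apart.

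Before S phase, origin recognition proteins, Cdc6 and Cdt1 load the MCM helicase onto DNA, a step called licensing. Cyclin-dependent kinases and the Cdc7-Dbf4 kinase then start the helicase with the help of Cdc45, the GINS complex and Mcm10, and polymerases, the clamp Pcna and its loader, and the replication protein A complex copy both strands. Many of these genes are known to be transcribed shortly before and during S phase, under transcription factors of the E2F family, and pre-B cells are known for a burst of division that ends before light chain genes are rearranged.

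Part of the members' promoters hold a sequence feature that the choice of genes did not use. A promoter window of 250 bases before to 50 after the annotated start (RefSeq, GRCm38.p6) was matched for 36 of the 46 members. An E2F word, which is TTTCCCGC, TTTCGCGC, TTTGCCGC or TTTGGCGC on either strand, lay in the windows of 14 of the 36 members (38.9%), against 2.6% of 27025 genes in the table and 4.88% of the 8908 genes with a window that were tested at 48 h. The 14 were Mcm3, Mcm5, Mcm6, Mcm7, Orc1, Cdc6, Cdt1, Gins3, Pola1, Pold1, Pole2, Rfc3, Lig1 and Uhrf1. The median GC content of the members' windows was 61.3%, beside 60.7% for the tested genes. Stretches before the start are shown for 2 MCM genes, 1 clamp loader gene and 1 GINS gene that carry such words, with the words in capitals. In Mcm6 (chr1:128359715-128359845, minus strand) and Mcm5 (chr8:75109326-75109397, plus strand), a pair of words overlaps on opposite strands. The Rfc3 stretch is chr5:151651209-151651248 on the minus strand and the Gins3 stretch is chr8:95633488-95633555 on the plus strand.
Mcm6: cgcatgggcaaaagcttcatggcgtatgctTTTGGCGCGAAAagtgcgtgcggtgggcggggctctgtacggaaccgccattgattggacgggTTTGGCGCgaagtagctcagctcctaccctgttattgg
Mcm5: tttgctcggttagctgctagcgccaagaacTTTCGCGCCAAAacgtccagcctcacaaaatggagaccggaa
Rfc3: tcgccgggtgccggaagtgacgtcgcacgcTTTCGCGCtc
Gins3: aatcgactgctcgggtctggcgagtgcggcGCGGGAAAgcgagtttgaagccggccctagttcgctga

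Other short words were less set apart by share. The word TGGGAA, a core to which Ikaros is known to bind, lay in 44.4% of the members' windows and in 26.1% of those of the genes tested at 48 h. The CCAAT box lay in 63.9% against 43.3%, and the word TTTGAA in 22.2% against 14.4%, all on either strand. These are descriptions of letters in a window, not of binding.

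Expression is given as the deposited log2 value, so a difference of 1 is 2-fold. On the arrays of the 48 h design 36.7% of all values lay within 0.01 of the lowest one, a floor, and a group within 1 log2 unit of it was treated as near the floor. No group of a member was near the floor. Within groups, arrays correlated at r of 0.987 to 0.995 over probe sets. The transduced gene was higher where its construct was inducible: Ikzf1 read 9.16, 9.26 and 9.39 on the vector arrays and 13.22 to 13.40 on the 6 Ikaros-ERt2 arrays. The lowest of these vector values was replicate 1, of which a label field names the inducible construct while the title names the vector. At 48 h both constructs are forms of Ikaros, and a pair of Ikzf1 probe sets disagreed (log2 change 0.33 and -8.34), so the gene did not check those labels. Of 8 listed B-lineage markers, 7 were measured (Cd79a, Cd79b, Vpreb1, Igll1, Pax5, Ebf1 and Blnk), all above the 40% of genes left untested on both array types. Some markers of other cell types passed that limit too. On the 48 h arrays these were Cd4, Cd8a, Lyz2, Klf1 and Pdgfra. On Gene 1.0 ST they were Cd3e, Epor and 4 of 5 fibroblast markers (Col1a1, Col1a2, Col3a1 and Thy1). The lists differed in level. At 48 h the mean level of the B-lineage markers was 11.36 to 11.72 on the Ikaros arrays and 11.78 to 12.06 on the 159A arrays. The means of the listed T cell, myeloid, erythroid and fibroblast markers lay between 2.24 and 3.16. On the Gene 1.0 ST arrays, the listed markers of those 4 other cell types had means between 4.28 and 5.98, beside 9.89 to 10.40 for the B-lineage markers.

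At 48 h, replication genes were lower in Ikaros cells than in 159A cells throughout the set. The loader gene Cdc6 was 16-fold lower, the polymerase delta subunit gene Pold2 12.1-fold lower and the helicase activator gene Mcm10 7.16-fold lower. Of 45 members, 27 fell and 0 rose in the limma test (60%), where 8.47% of the 10916 tested genes were called lower and 6.38% higher. The median log2 change was -1.85 over the members and 0 over all tested genes. All 45 members had a negative change, beside 5310 of the 10916 tested genes. By size, 37 members changed at least 2-fold and 22 at least 4-fold, for which no count over all genes was made. The arrays of the groups did not overlap for 44 members (97.8%), the exception being Rpa3, where 30% of all tested genes had lower values and 27.7% higher values in Ikaros cells without overlap. These are RNA levels of whole cultures, in which fewer cells of a type and less RNA per cell cannot be told apart.

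The median level over members was 9.50 and 9.67 on the 2 Ikaros arrays and 11.38 and 11.13 on the 2 159A arrays. Array quality was read from the control probe sets at either end of Actb and Gapdh. The 3′ signal exceeded the 5′ signal of Actb by 3.64 and 2.47 log2 units on the Ikaros arrays and by 3.29 and 2.69 on the 159A arrays. For Gapdh the excess was 4.46 and 2.67 against 3.42 and 2.35. Replicate 1 had the larger excess in both groups, and the groups overlapped; its part in the result was not tested. With any 1 of the 4 arrays left out, limma called 0 members and 0 of all genes (27 to 37 members and 2165 to 3668 genes at an unadjusted p under 0.05), the members' median lying between -1.99 and -1.75. With no filter on low genes, 4 members were called, Chaf1b, Fen1, Gins1 and Pold1, and 185 of all genes. With the replicate number as a block in the fit, 0 members and 0 of all genes were called. That fit leaves 1 residual degree of freedom.

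**Figure D1:**
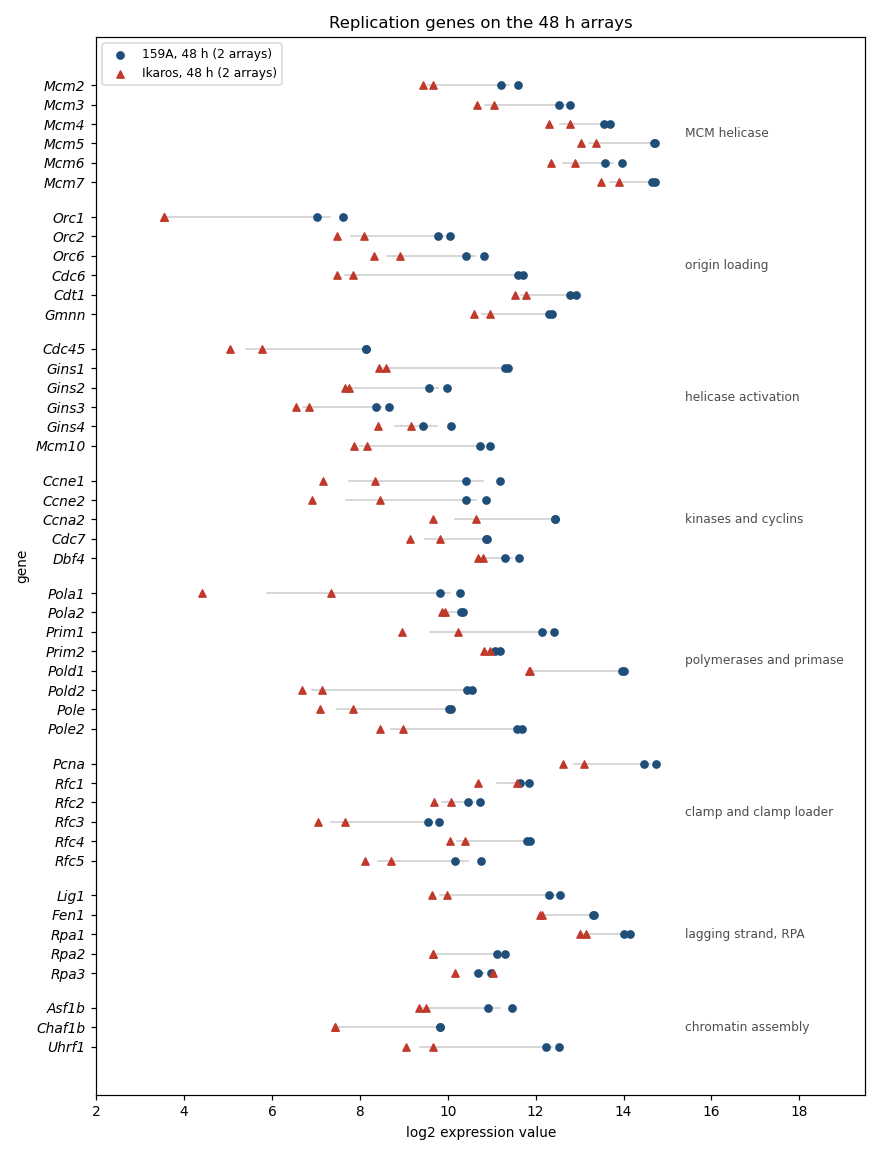
Deposited log2 values of the 45 members on the 4 arrays of the 48 h design, with 159A arrays as circles, Ikaros arrays as triangles and a line joining the group means; genes are grouped by role. Except for Rpa3, the Ikaros values lie left of the 159A values in each row.

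The 6 MCM genes encode the ring-shaped helicase that unwinds DNA, and 3 of them fell. Mcm2 read 9.66 and 9.44 in Ikaros cells and 11.59 and 11.20 in 159A cells, a log2 change of -1.85 ± 0.20 (standard error of the limma fit, as below; adjusted p = 0.0354). Mcm3 (-1.81) and Mcm5 (-1.51) fell as well. Mcm7 had the smallest difference, with 13.48 and 13.91 against 14.64 and 14.71 (-0.98, adjusted p = 0.0756). Mcm4 (-1.08, adjusted p = 0.0813) and Mcm6 (-1.15, adjusted p = 0.111) did not pass the limma test either, and in all 6 genes every Ikaros array lay below every 159A array.

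Of the 6 genes that mark origins, load the helicase or, as Gmnn does, hold loading back, 5 fell. Cdc6, the ATPase that brings the helicase to origins, read 7.47 and 7.84 in Ikaros cells and 11.71 and 11.61 in 159A cells (log2 change -4.00 ± 0.17, adjusted p = 0.0187 by limma). Orc1, the largest origin recognition subunit, read 3.53 on both Ikaros arrays and 7.61 and 7.03 on the 159A arrays (-3.79 ± 0.25, adjusted p = 0.0237). Since its Ikaros values were identical, the size of the Orc1 change is not exact, its spread came from the 159A arrays alone, and its p can be too small; the other Orc1 probe set changed by -0.82. Orc2 fell by 2.12, and Gmnn, the inhibitor of Cdt1, fell by 1.57. Cdt1, the partner of Cdc6 in loading, fell least, from 12.78 and 12.91 to 11.54 and 11.78 (-1.19 ± 0.13, adjusted p = 0.0353). Orc6 stood at -2.00 with an adjusted p of 0.0547.

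Among the 6 helicase activation genes, 5 fell. Mcm10, a factor needed for origin firing, read 7.86 and 8.16 in Ikaros cells and 10.96 and 10.74 in 159A cells (log2 change -2.84 ± 0.16, adjusted p = 0.0227 by limma). Gins1, a subunit of the GINS complex, read 8.45 and 8.59 against 11.38 and 11.29 (-2.82 ± 0.09, adjusted p = 0.018). Cdc45, the other cofactor of the moving helicase, fell (-2.73), as did Gins2 (-2.09) and Gins3 (-1.81). Gins4 had the smallest difference of the group and the widest spread, at 9.17 and 8.41 against 10.08 and 9.43 (-0.96 ± 0.43, adjusted p = 0.263). Its highest Ikaros array was replicate 1, and so was its highest 159A array.

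None of the 5 kinase and cyclin genes was called by limma at 48 h, although all 5 were lower in Ikaros cells without overlap. The E-type cyclin gene Ccne1, which drives entry into S phase, read 8.35 and 7.15 against 11.19 and 10.41 (log2 change -3.05 ± 0.61, adjusted p = 0.0789). Ccne2, the other E-type cyclin gene, read 6.91 and 8.45 against 10.41 and 10.87 (-2.96 ± 0.68, adjusted p = 0.099). Their Ikaros arrays lay more than 1 log2 unit apart, with replicate 1 the higher array for Ccne1 and the lower for Ccne2. The S phase cyclin gene Ccna2 stood at -2.28 (adjusted p = 0.0699) and the kinase gene Cdc7 at -1.41 (adjusted p = 0.0836). Dbf4, the activator of Cdc7, had the smallest difference, with 10.80 and 10.68 against 11.62 and 11.30 (-0.72, adjusted p = 0.0896).

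The 8 polymerase and primase genes held both the largest and the smallest change of the set. Pola1, the catalytic subunit of polymerase alpha, read 4.41 and 7.34 in Ikaros cells and 9.81 and 10.27 in 159A cells. Its log2 change of -4.17 ± 1.26 did not pass the limma test (adjusted p = 0.148), its Ikaros arrays lying far apart. Pold2, an accessory subunit of polymerase delta, read 6.68 and 7.13 against 10.44 and 10.56 (-3.60 ± 0.20, adjusted p = 0.0224). Pole2, a subunit of the leading-strand polymerase epsilon, read 8.46 and 8.98 against 11.69 and 11.57 (-2.91 ± 0.23, adjusted p = 0.0274). The catalytic subunit genes Pole (-2.59) and Pold1 (-2.12) fell too. The primase gene Prim1 stood at -2.69 (adjusted p = 0.0822). Its partner Prim2 read 10.97 and 10.81 against 11.19 and 11.07 (-0.24, adjusted p = 0.242), and Pola2 stood at -0.43 (adjusted p = 0.0557).

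Of the clamp gene Pcna and 5 clamp loader genes, 3 fell. Pcna, the ring that holds polymerases on DNA, read 12.62 and 13.11 against 14.74 and 14.46 (log2 change -1.73 ± 0.24, adjusted p = 0.0485 by limma). Rfc3, a small loader subunit, read 7.65 and 7.04 against 9.79 and 9.54 (-2.32 ± 0.28, adjusted p = 0.041), and Rfc4 fell by 1.62. Rfc5 stood at -2.06 (adjusted p = 0.0665) and Rfc2 at -0.72 (adjusted p = 0.14). The large loader subunit gene Rfc1 read 10.68 and 11.57 against 11.65 and 11.85, so that its groups nearly met (-0.63, adjusted p = 0.39).

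Lagging-strand and chromatin genes fell in 7 of 8 cases. Lig1, the ligase that joins Okazaki fragments, read 9.65 and 9.98 against 12.56 and 12.30 (log2 change -2.61 ± 0.18, adjusted p = 0.025 by limma), and the flap nuclease gene Fen1 fell by 1.20. In the single-strand binding complex, Rpa2 (-1.56) and Rpa1 (2-fold lower) fell. The small subunit gene Rpa3 read 11.02 and 10.17 against 10.97 and 10.69 and was the single member with overlapping groups (-0.24, adjusted p = 0.728); without Ikaros replicate 2 its difference was positive. Uhrf1, which carries DNA methylation over to new strands, read 9.06 and 9.67 against 12.53 and 12.23 (-3.01 ± 0.29, adjusted p = 0.0329). Chaf1b, a subunit of the histone deposition factor CAF-1, read 7.44 on both Ikaros arrays and 9.81 and 9.82 on the 159A arrays (-2.38 ± 0.05), with the smallest adjusted p of the members, 0.0153. Asf1b, a histone chaperone, fell least of these 3, from 11.46 and 10.91 to 9.50 and 9.33 (-1.77 ± 0.25, adjusted p = 0.0494, or 0.0508 and so not called by eBayes with trend and robust).

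The probe sets not chosen gave the same direction. For 33 of the 45 members the arrays held more than 1 probe set, 92 in all. Of the 47 not chosen, 10 had both groups near the floor. The other 37 all had a negative change, with a median log2 change of -1.69 and a range from -3.78 to -0.01. Of these, 32 were lower without overlap, beside 30% of all tested genes by their brightest probe set. Probe sets of 1 gene differed in size: a dim one of Cdc45 changed by -0.03 and one of Orc1 by -0.82, against -2.73 and -3.79 for the brightest, while a pair for Mcm5 changed by -2.67 and -2.74, against -1.51. With the mean over a gene's probe sets in place of the brightest, 28 members were called. Gins3 lost its call (-1.49, adjusted p = 0.0543), and among members that kept it the change became -0.95 for Mcm10, -1.19 for Chaf1b, -1.38 for Cdc45, -2.31 for Orc1 and -2.31 for Mcm5. These probe sets share the RNA samples and are no further replicates.

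**Figure D2:**
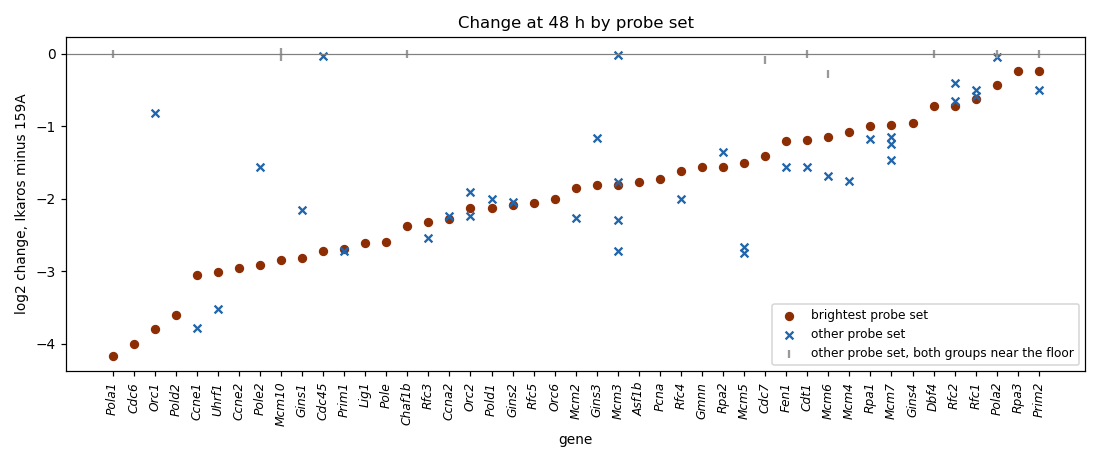
Log2 change at 48 h (Ikaros minus 159A) for every probe set of the 45 members, ordered by the change of the brightest probe set (circles); crosses are other probe sets and grey ticks are those with both groups near the floor. All 37 crosses lie below 0, at -0.01 to -3.78.

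Beyond the 46 genes, another list of 45 replication genes was read the same way, of which 44 were measured. At 48 h, 15 of them fell and 1 rose (36.4% called by limma, beside 14.8% of all tested genes), with a median log2 change of -1.27. The largest fall was that of a nucleotide supply gene. Tyms, thymidylate synthase, read 2.60 and 2.83 against 7.64 and 8.28, at least 27.2-fold lower because its Ikaros arrays were near the floor. The thymidine kinase gene Tk1 (-3.15) and the ribonucleotide reductase gene Rrm2 (-3.13) fell too. The fork genes Dna2, a nuclease-helicase (-4.57), Timeless, a fork protection factor (-3.33), and Dscc1, part of an alternative clamp loader (-3.04), also fell. Dck, the deoxycytidine kinase gene of nucleotide salvage, rose, from 14.05 and 13.84 to 15.20 and 14.96 (log2 change 1.14 ± 0.15, adjusted p = 0.0436). With the mean over probe sets, Dck stood at 0.64 and Dscc1 at -1.93, neither of them called (adjusted p = 0.184 and 0.0594), while Tyms at -1.64 and the firing factor gene Ticrr at -0.82 were. With no filter, and with any 1 array left out, 0 of these genes were called (16 to 29 at an unadjusted p under 0.05 with an array left out). With the replicate number as a block, 0 of these genes were called as well. Among 10 other licensing and firing factors 1 fell, Ticrr (-2.43 with its brightest probe set). All 10 had a negative change, and 7 were lower without overlap, beside 30% of all tested genes. The largest difference was that of Recql4, at 4.44 and 5.49 against 7.79 and 7.56 (-2.71, not called). Orc3, Orc4 and Orc5 stood at -0.08, -0.26 and -0.87 and were not called, beside -3.79 and -2.12 for Orc1 and Orc2.

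At 2 h of 4-hydroxytamoxifen, differences were small. The cyclin gene Ccne2 and the helicase activator gene Mcm10 were higher in the Ikaros-ERt2 line. Of 46 members, limma called 2 higher than in vector cells and 0 lower (4.35%), where 1.86% of 11963 genes were called, 0.769% higher and 1.1% lower. The median log2 change was 0.11 over the members and -0.01 over all tested genes. Of the members, 41 had a positive and 5 a negative change (Pold1, Pold2, Pole, Ccna2 and Rfc1), beside 5646 positive and 6312 negative changes over all 11963 tested genes. Quantile normalization turned the sign of Asf1b and Prim2, and centring that of Rfc1. Leaving out vector replicate 2 turned that of 5 members. With any 1 array left out, the members' median lay between 0.095 and 0.153. At an unadjusted p under 0.05, 14 members were higher and 0 lower, beside 826 and 865 of all tested genes. Values of 16 members (34.8%) were higher without overlap of the arrays, beside 9.23% of all tested genes, and those of 1 member, Pold2, were lower, beside 9.4%. The mean level of the 7 B-lineage markers was 10.28 to 10.40 on the vector arrays and 10.03 to 10.10 on the 2 h arrays; its part in the result was not tested.

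Ccne2 read 8.29, 8.28 and 8.23 in vector cells and 8.86, 8.66 and 8.71 in Ikaros-ERt2 cells at 2 h, a log2 change of 0.47 ± 0.09 or 1.39-fold (limma adjusted p = 0.02). Mcm10 read 8.93, 8.94 and 8.93 in vector cells and 9.29, 9.18 and 9.37 at 2 h, a change of 0.35 ± 0.07 or 1.27-fold (adjusted p = 0.0425). With the replicate number as a block, Ccne2 was called (adjusted p = 0.0265) and Mcm10 was not (adjusted p = 0.0564), nor was Mcm10 after quantile normalization (adjusted p = 0.0519). In both genes the 3 vector arrays lay close together and below all 2 h arrays. The next differences did not pass the test: Orc6 stood at 0.40 (adjusted p = 0.132), Gmnn at 0.37 (0.121), Rpa2 at 0.36 (0.0645) and Mcm7 at 0.32 (0.0568). Mcm7 read 10.66, 10.51 and 10.66 in vector cells and 10.96, 10.99 and 10.83 at 2 h, again without overlap. By role, the medians ran from 0.02 for polymerases and primase to 0.24 for helicase activation. The count of called members was 0 without Ikaros-ERt2 2 h replicate 1 or without vector replicate 1, 2 or 3, and 1 without Ikaros-ERt2 2 h replicate 3 or 6 h replicate 1; it was 1 with no filter or with only the 2 groups in the fit, and 4 with a 60% filter.

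**Figure D3:**
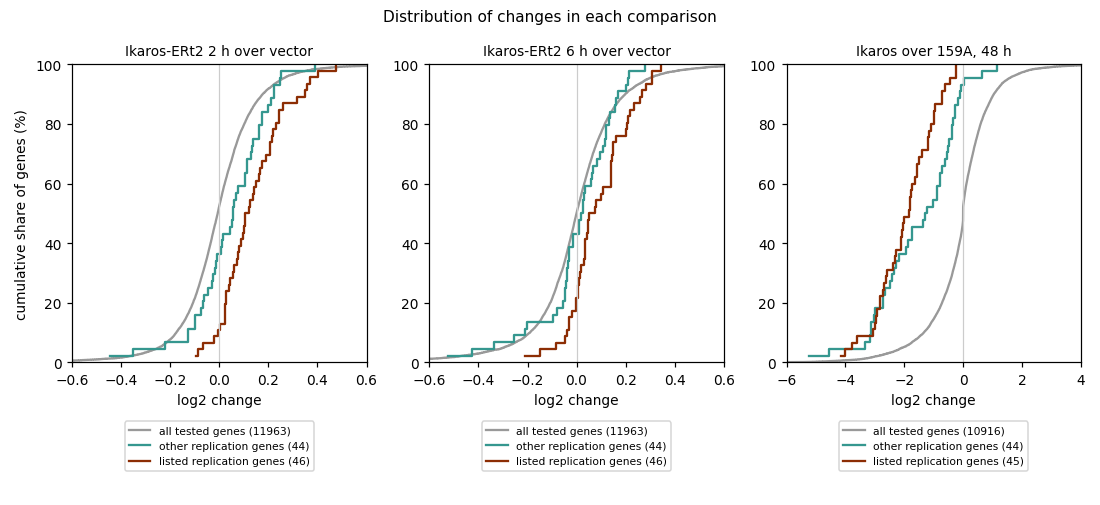
Cumulative share of genes (percent) by log2 change in 3 comparisons, for all tested genes (grey), the 44 other replication genes measured (green) and the members (brown); the horizontal scale of the 48 h panel is wider. The members' median lies at 0.11, 0.06 and -1.85 from left to right.

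At 6 h, with equal exposure in both lines, Ccne2 was higher in the Ikaros-ERt2 line at this time too, and the histone chaperone gene Asf1b was higher as well. Of 46 members, limma called 2 higher than in vector cells and 0 lower (4.35%, with 2.58% of all tested genes called higher and 3.2% lower, 5.78% in all), a share near the background. The median log2 change was 0.06 over the members and 0 over all tested genes. The members had 36 positive and 10 negative changes, beside 5970 and 5989 of the 11963 tested genes. Quantile normalization turned the sign of Cdc6. Leaving out 6 h replicate 3 turned that of 8 members, and leaving out vector replicate 2 that of 6. With any 1 array left out, the members' median lay between 0.027 and 0.103. Values of 13 members (28.3%) were higher without overlap, beside 11% of all tested genes, and those of 1 member, Pold2, were lower, beside 10.3%. The B-lineage markers had a mean of 9.89 to 10.02 on the 6 h arrays, and its part in the result was not tested.

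Ccne2 read 8.60, 8.77 and 8.48 in Ikaros-ERt2 cells at 6 h, all above the vector arrays (log2 change 0.35 ± 0.09 or 1.27-fold, limma adjusted p = 0.0405). With the replicate number as a block, Ccne2 was not called at 6 h. Asf1b read 10.60, 10.48 and 10.54 in vector cells, 10.60, 10.60 and 10.48 at 2 h and 10.98, 10.80 and 10.76 at 6 h. Its difference from vector was 0.31 ± 0.08 or 1.24-fold at 6 h (adjusted p = 0.0424) and 0.02 at 2 h (adjusted p = 0.948). Mcm10 stood at 0.21 (adjusted p = 0.149), with 9.24, 9.06 and 9.12 on the 6 h arrays, all above the vector arrays. The loader gene Rfc4 stood at 0.31 (adjusted p = 0.0633), Ccne1 at 0.28 (0.0811) and Cdc45 at 0.27 (0.106), none of them called. Pold2 read 9.57, 9.53 and 9.66 in vector cells and 9.33, 9.47 and 9.33 at 6 h, lower without overlap but not called (-0.21 ± 0.07, adjusted p = 0.123). The count of called members was 0 without Ikaros-ERt2 6 h replicate 1 or 2 or without any 1 vector array, 1 without any 1 of the 2 h arrays and 4 without 6 h replicate 3; it was 0 with no filter or with only the 2 groups in the fit and 4 after quantile normalization.

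**Figure D4:**
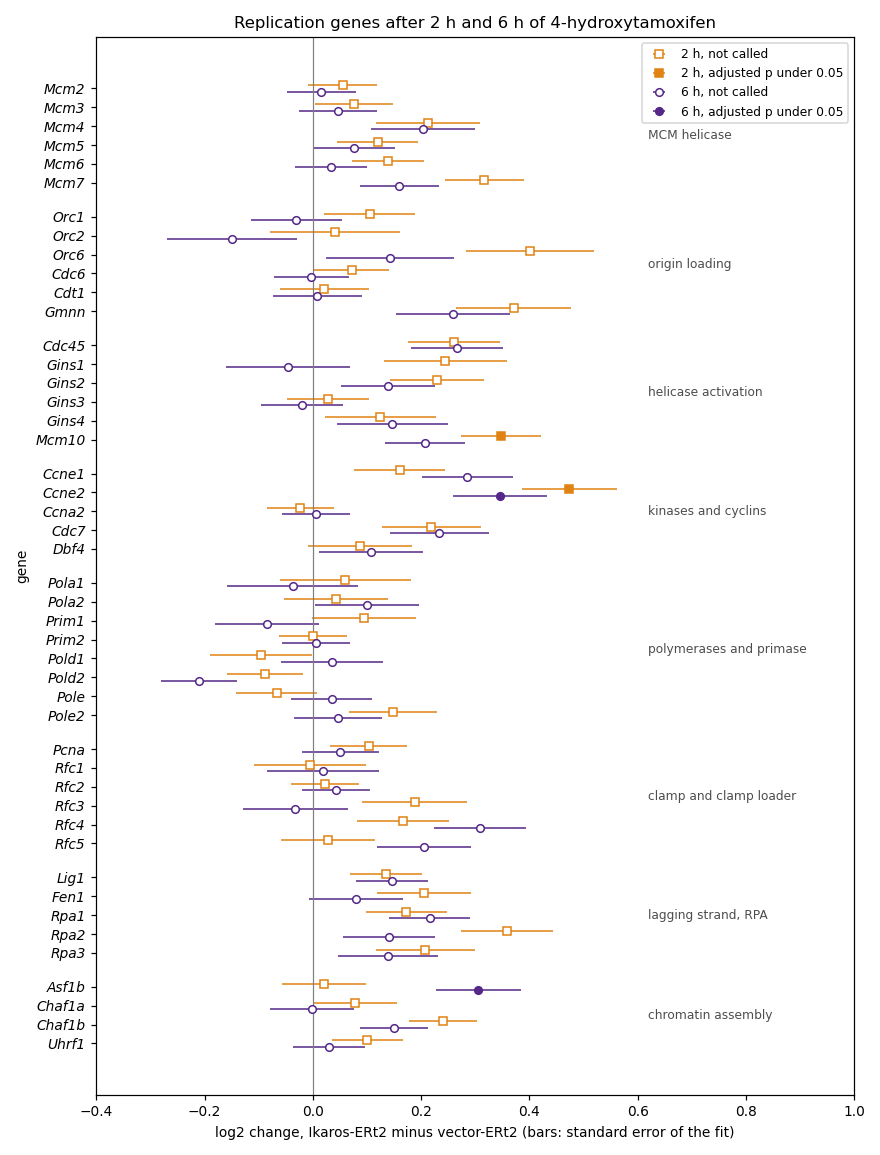
Log2 change of the 46 members at 2 h (squares) and 6 h (circles) over the same 3 vector arrays, with bars of 1 standard error of the limma fit; filled symbols have an adjusted p under 0.05. Filled symbols are Ccne2 at both times, Mcm10 at 2 h and Asf1b at 6 h.

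Of the 44 other replication genes, limma called 2 lower than in vector cells at each time and 0 higher (8 higher and 3 lower at an unadjusted p under 0.05 at 2 h, 4 and 6 at 6 h). That is 4.55% of them, beside 1.86% of all tested genes called at 2 h and 5.78% at 6 h, so the share at 6 h is near the background. The genes called lower were Pold4, the smallest subunit of polymerase delta, and Dna2. Pold4 read 9.53, 9.59 and 9.55 in vector cells, 9.19, 8.94 and 9.21 at 2 h and 9.05, 9.18 and 8.87 at 6 h, with log2 changes of -0.45 (adjusted p = 0.0449) and -0.52 (adjusted p = 0.00934). Dna2 read 9.20, 9.05 and 9.19 in vector cells, 8.83, 8.70 and 8.86 at 2 h and 8.80, 8.71 and 8.65 at 6 h (-0.35 and -0.43, adjusted p = 0.0433 and 0.0074). Neither gene overlapped with vector at either time. Between 2 h and 6 h each stood at -0.08 and was not called, and a standing difference between the lines was not tested. With the replicate block, Pold4 was not called at 2 h (adjusted p = 0.0703). At 2 h, neither was called with no filter, and the count was 0 without any 1 of the 2 h arrays, any 1 vector array or 6 h replicate 1, and to 1 without 6 h replicate 2 or with only the 2 groups in the fit. At 48 h, Dna2 was 23.8-fold lower and Pold4 stood at -0.34 (adjusted p = 0.124).

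Between 2 h and 6 h in the Ikaros-ERt2 line, 0 of 46 members were called by limma (1 higher and 3 lower at an unadjusted p under 0.05), beside 0.903% of all tested genes (0.376% higher and 0.527% lower). The changes ran from -0.29 for Gins1 to 0.28 for Asf1b (adjusted p = 0.127), with a median of -0.05. Negative changes were found for 29 of 46 members, beside 5628 of the 11963 tested genes. Centring turned the sign of 4 members, quantile normalization that of 5 and leaving out 2 h replicate 2 that of 7. Asf1b and Rfc5 (4.3% of members) were higher at 6 h without overlap, beside 7.9% of all tested genes, and Rpa2, Mcm7 and Mcm6 (6.5%) lower, beside 6.91%. Ccne2 stood at -0.13 between the times (adjusted p = 0.582).

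Set side by side, most members had a small positive change at 2 h and 6 h and a negative one at 48 h. The designs used different arrays, constructs, controls and normalizations, and the 2 h and 6 h comparisons share their vector arrays, so no test joins them. All 45 members on both array types had a negative change at 48 h, so only the signs at 2 h and 6 h could vary. Of these members, 40 had a positive change at 2 h and 36 at 6 h, and 3 were called higher at either time. Some of these changes were near 0, such as 0.001 for Prim2 at 2 h. The 3 genes called at 2 h or 6 h, Ccne2, Mcm10 and Asf1b, stood at -2.96, -2.84 and -1.77 at 48 h, the first of them not called. Pold2 was the single member with a negative change at 2 h (-0.09), 6 h (-0.21) and 48 h (-3.60). The absolute changes also differed in scale, at most 0.47 at 2 h and 0.35 at 6 h, against 4.17 at 48 h.

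**Figure D5:**
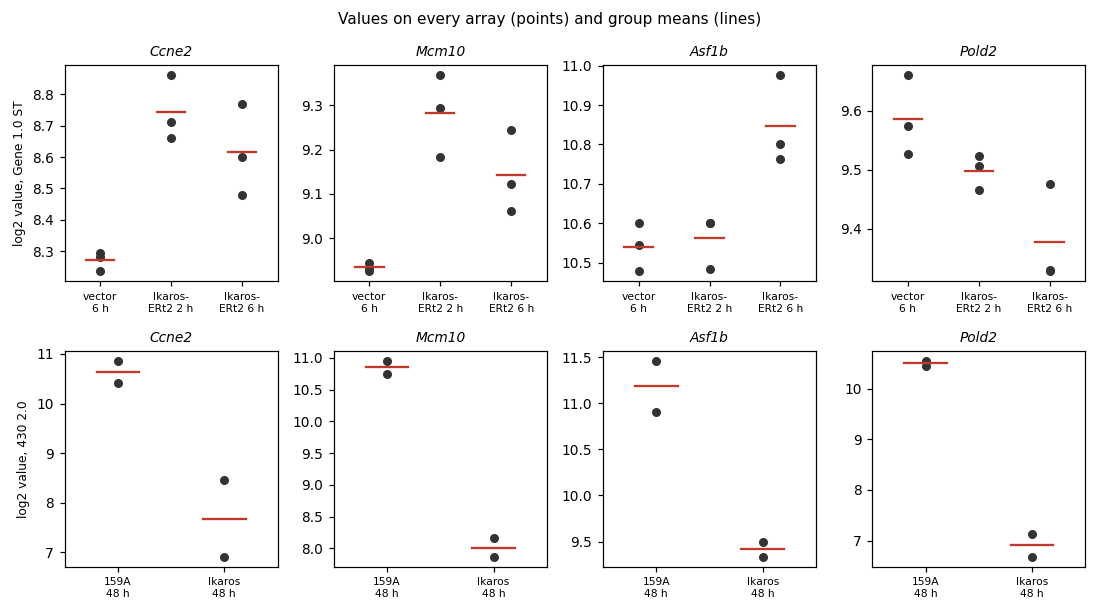
Deposited log2 values on every array (points) and group means (lines) for Ccne2, Mcm10, Asf1b and Pold2, with the Gene 1.0 ST arrays above and the arrays of the 48 h design below; each panel has its own vertical scale and no level is comparable between rows. Ccne2, Mcm10 and Asf1b are highest at 2 h or 6 h above and lower in Ikaros than in 159A cells below. Pold2 has lower means in Ikaros-ERt2 than in vector cells above and in Ikaros than in 159A cells below.

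The members measured at 48 h can also be split by the words in their windows, leaving out those with no window. The 14 members with an E2F word had a median log2 change of -2.22, and the 21 whose window held none had -1.77. For TGGGAA the medians were -2.32 with the word and -1.79 without. The CCAAT box (-1.83 and -2.06) and TTTGAA (-1.79 and -2.06) went the other way. None of these differences was tested. Members with an E2F word included Pola1 (-4.17, not called), Cdc6 (-4.00) and Orc1 (-3.79), and members without one included Pold2, Mcm10 and Chaf1b. Of the 4 genes whose stretches are printed above, Mcm5, Rfc3 and Gins3 fell and Mcm6 did not pass the test.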

How the data were processed

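Per the labels' protocols, a two-cycle or a whole-transcript kit amplified the RNA, according to array type. The deposited log2 values, 1 per probe set and array, were used as given; limma, affy, RMA and GCRMA appear in the submitters' processing notes, without versions or roles. Array types were normalized apart and tested apart. Only probe sets with 1 gene symbol were named (34958 of 45101 on the 48 h type, 21789 of 35556 on Gene 1.0 ST). The brightest probe set stood for a gene, and genes in the lowest 40% by mean were not tested. Differences were fitted in R 4.3.3 with lmFit and eBayes of limma 3.58.1, with two-sided tests and Benjamini-Hochberg adjustment over all tested genes, called at an adjusted p under 0.05; all 9 Gene 1.0 ST arrays entered 1 fit. The scripts were tested on simulated data with 200 changed genes. At 48 h, 43% of changes of 2 log2 units and 70% of those of 4 were recovered. At 6 h, 75% of changes of 0.5 and 100% of those of 1 were. A gene that was not called can therefore still differ. Same-numbered 2 h and vector arrays deviated together (r = 0.119, 0.128 and 0.235), so calls that the replicate number as a block ends are given at 2 h. That of Ccne2 at 6 h is given as well, and so is the loss of all calls at 48 h. The number of arrays limits the precision. Members, lists, tests and alternatives were chosen with earlier results of these data known. Values on every array are given for members called at 2 h or 6 h, the 10 largest changes at 48 h and the largest and smallest change of each role; other genes were named after their values were seen.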

Additional observations from a re-analysis of the deposited data

How the results depend on the processing

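Numbers of called genes, all by limma, moved with the filter on low genes, the samples in the fit and single arrays. No called member changed direction under any alternative run for it. With no filter, the counts over all genes were 141 at 2 h (223 in the report), 59 between the times (108) and 185 at 48 h (1621), the members' counts were 1 at 2 h, 0 at 6 h and 4 at 48 h, and the other replication genes' were 0 at 2 h and 0 at 48 h. A 60% filter gave 4 members at 2 h, quantile normalization 4 at 6 h, and centring 2437 genes at 48 h, 1236 higher and 1201 lower, against 696 and 925. Centring moved every 48 h change by 0.105. With only the compared groups in the fit, the counts were 1 member and 1 other gene at 2 h, 0 members at 6 h and 0 genes between the times. The causes were not tested.

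Leaving out 1 array gave 82 to 269 genes, 0 to 3 members and 0 to 2 other replication genes at 2 h, and 335 to 714 genes and 0 to 4 members at 6 h. Between the times it gave 9 to 149 genes. At 48 h it gave 0 genes, 0 members and 0 other genes, where 1 group is a lone array assumed to vary like the other.

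The labels give the groups the same replicate numbers without saying what a number shares. At 48 h same-numbered arrays deviated together (r = 0.572). With 2 arrays per group the deviations mirror each other, so both pairs must give the same value. That is 1 comparison, too few to take the numbers as a pairing. On Gene 1.0 ST the correlation was 0.119 to 0.235 between 2 h and vector arrays, all above 0.1, but -0.096 to 0.106 between 6 h and vector and -0.258 to 0.244 between the times. With the replicate block, the count at 2 h was 1 other replication gene and 2 members, Mcm10 not among them; it ended the calls of Mcm10 and Pold4 there, and not those of Ccne2 and Dna2. At 6 h the count with the block was 1 member, Asf1b, and the call of Ccne2 ended. At 48 h it was 0 genes, 0 members and 0 other genes, where 1 residual degree of freedom is left.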

Other observations

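Replication-coupled chromatin genes outside the 46 split by gene at 48 h. Of 8 measured, 3 fell by limma: the maintenance methyltransferase gene Dnmt1 (log2 change -1.74, adjusted p = 0.0371), Mms22l, which acts at stalled forks (-1.74, adjusted p = 0.0489), and the histone acetyltransferase gene Hat1 (-1.24, adjusted p = 0.0326). Asf1a, the paralog of Asf1b, stood at 0.64 and was not called (adjusted p = 0.0725), where Asf1b fell by 1.77. Rbbp4, a histone-binding subunit shared with CAF-1, stood at 0.03 (adjusted p = 0.941), and the CAF-1 subunit gene Chaf1b fell by 2.38. The difference between the paralogs was not tested.

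Among the other polymerase and fork subunits, Pole3 (-1.37), Chtf18 (-2.99), Wdhd1 (-2.34) and the ribonuclease subunit gene Rnaseh2a (-1.31) fell at 48 h by limma, with adjusted p of 0.0459, 0.0283, 0.0448 and 0.0494. By eBayes with trend and robust, Pole3 (adjusted p = 0.0504), Rnaseh2a (adjusted p = 0.0528) and Mms22l (adjusted p = 0.0518) were not called, nor was Pole3 with the mean over its probe sets (-0.71, adjusted p = 0.0808). The topoisomerase genes Top2a (-2.28, adjusted p = 0.233) and Top1 (-0.12, adjusted p = 0.961) were not called.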
